A study of Mus musculus with 15 samples.

Results

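The motor genes described here are those of the kinesin superfamily, the kinesin light chains, cytoplasmic dynein and the dynactin complex that recruits it. They were picked by gene symbol alone: the numbered Kif genes, the Kifc genes, Kifap3, Klc1 to Klc4, all Dync1 and Dync2 genes, Dctn1 to Dctn6, Dynll1, Dynll2, Dynlrb1 and Dynlrb2. The rule found 61 genes among the 18193 genes that a probe set of the array names singly, and each was read from 1 probe set, the one with the highest mean over all arrays. The study followed fast-spiking GABAergic interneurons of the mouse somatosensory cortex (S1) as they matured after birth, using G42 transgenic mice, a line in which the Gad1 promoter drives GFP in a subset of parvalbumin interneurons. Slices were treated with protease, the cortex was dissected and broken up, and fluorescent neurons were taken by hand with a micropipette. The groups were postnatal days 7, 10, 15 and 25 (P7, P10, P15 and P25) and a last group called P40 that spans days 40 to 45, each with 3 arrays from 3 animals. Every group carried the same transgene and received no agent, and age is what separates them. Between 23 and 85 cells were pooled per array, so a level is that of a small pool and of the cells that could be seen and survived dissociation. About 0.3 to 1 ng of RNA was amplified in 2 rounds, which favours the 3′ ends of transcripts.

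Kinesins mostly walk toward the plus ends of microtubules and so carry vesicles, mitochondria and RNA outward along the axon, while cytoplasmic dynein with dynactin walks toward minus ends and brings endosomes, spent organelles and growth factor signals back to the cell body. A motor is built of heavy chains that hold the ATP-driven head and of lighter chains or adaptors that choose the cargo. Other kinesins do not carry cargo but move chromosomes in dividing cells or shorten and restrain microtubules, and in young neurons these shape axon branches and dendrites.

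Levels are deposited log2 values, and a probe set was taken as measured where it stood above 5 on at least 3 of the 15 arrays; 9663 genes met this. The picked cells carried the interneuron genes: Pvalb, the calcium buffer parvalbumin, went from 3.62 ± 0.72 at P7 to 14.28 ± 0.20 at P40 (SD, n = 3 each), and Gad1, Gad2 and Slc32a1, which make and package GABA, stood at or above 9.54 on every array. Of the 7 parvalbumin interneuron markers 6 were measured: those 4 and the potassium channel gene Kcnc1 rose from P7 to P40, Lhx6 fell (-0.83, adjusted p = 0.0027), and Erbb4 passed 5 on 1 array. Among the markers of other interneuron classes 4 of 7 were measured. Cck was higher (3.55) and Reln lower (-2.70) at P40, and Sst and Npy were not called. Sst passed 5 on 14 of the 15 arrays and ranged from 1.72 to 13.04. Its mean was 11.53 ± 1.21 at P7 and 8.34 ± 5.76 at P40, where the arrays differed widely. Npy went from 10.92 ± 0.13 at P7 to 12.27 ± 0.18 at P40. The log2 of the summed level of this list ran from 12.74 to 13.95 at P7 and was at least 13.11 at P40. Slc17a7, the glutamate transporter of excitatory neurons, lay between 2.41 and 2.62, and 0 of 6 excitatory markers and 0 of 5 endothelial and mural markers were measured. Of the oligodendrocyte markers, 3 of 5 were measured, and the log2 of their summed level ran from 10.74 to 11.07 at P7, from 11.01 to 12.20 at P25 and from 8.93 to 9.92 at P40. Of the astrocyte markers, 4 of 6 were measured, with summed levels of 5.70 to 7.16 at P7, 7.55 to 10.08 at P25 and 5.52 to 8.35 at P40, and S100b was higher at P40 than at P7 (2.50, adjusted p = 0.023). Of 6 microglial markers 1 was measured, Csf1r, which was lower at P40 (-1.83), with summed levels of 6.56 to 7.53 at P7 and 6.04 to 6.22 at P40. The part of these other cell types in the results was not tested. The difference between 3′ and 5′ beta-actin probe sets, a sign of how far amplified RNA was shortened, was 4.64 to 6.41 at P7 and 3.40 to 4.50 at P40, with no overlap. P15 replicates 2 and 3 lacked signal from the hybridization controls (2.51 and 2.47 against at least 9.88 elsewhere) and also had low 3′ to 5′ differences, 3.99 and 3.54 against 5.97 for P15 replicate 1. In pools of cells, fewer cells of a type and less RNA per cell cannot be told apart.

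Of the 61 motor genes, 40 were measured and tested, and 32 of these stood above 5 on all 15 arrays. The other 21 stayed between 2.46 and 5.54, and 19 of them never passed 5 on any array. Of the kinesins that act in mitosis, 11 of 12 were not measured: Kif4, Kif11, Kif14, Kif15, Kif18a, Kif18b, Kif20a, Kif20b, Kif23, Kif2c and Kifc1. Kif11, which slides spindle microtubules apart, passed 5 on 1 array, with a range of 3.28 to 5.54. Of 8 markers of dividing cells 1 was measured, Pcna, which also serves DNA repair; it lay between 7.20 and 10.90 and was higher at P15 than at P10 (2.17). Mki67, the standard marker of division, lay between 3.04 and 3.29. Only Kif22, a kinesin that binds chromosome arms, was measured among the mitotic kinesins. It was measured by 1 of its 3 probe sets, and the others stayed under 5 on all arrays. The remaining 10 that were not measured were Klc3, Kif6, Kif7, Kif9, Kif12, Kif24, Kif26a, Kif27, Kif28 and Kif2b. All 5 dynein 1 genes, both dynein 2 genes, all 4 light chain genes, all 6 dynactin genes, all 3 kinesin-1 heavy chain genes and all 5 kinesin-2 genes were measured.

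Between P7 and P40, 17 of the 40 tested motor genes rose and 3 fell. The rises were spread over the kinesin-1, kinesin-2, kinesin-3 and kinesin-14 families, Kif21a, both dyneins, the light chain Dynll2 and dynactin, while the falls were Kif21b, Kif2a and Dynll1. Calls are those of limma at an adjusted p under 0.05 over all 9663 genes, of which 27.5% were called higher and 17.6% lower, against 42.5% and 7.5% of the motor genes. The counts per family given below rest on few genes each and stand against these same shares of all genes. The median difference was 0.39 on the log2 scale over the motor genes and 0.18 over all genes tested. In the 15 risers with both means above 5, the level at P40 was 1.34 to 3.16 times that at P7. The moderated F test over all 5 ages called 20 of the 40 motor genes, or 50% of them, against 47.2% of all genes.

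The number of rises moved with the processing. With array medians set equal, which took 0.22 off every P40 minus P7 difference, 10 motor genes rose and 5 fell, and with quantile normalization 12 rose and 5 fell. With the beta-actin 3′ minus 5′ difference as a covariate 3 rose (Dync1li2, Klc4 and Kif17) and 3 fell, and with the number of picked cells as a covariate 8 rose. Leaving out P7 replicate 2, P7 replicate 3 or P40 replicate 1 left 10 rises each, and leaving out P40 replicate 3 left 11. The shares of all genes called under these alternatives are not given here. Whether the loss of calls was particular to the motor genes was not tested. Dync1li2, Klc4, Kif21b, Kif2a and Dynll1 were called under all 28 alternatives that gave a value for them.

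**Figure D1:**
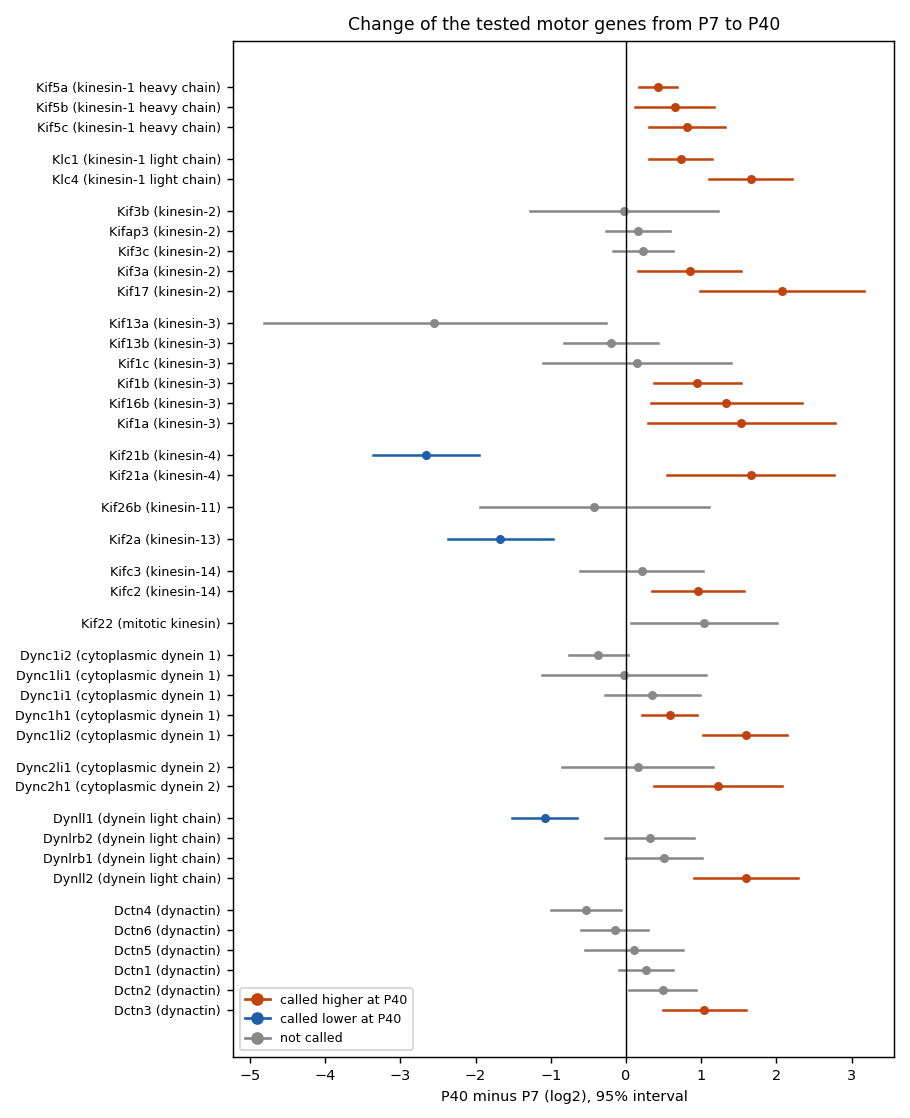
Difference between P40 and P7 for each of the 40 tested motor genes on the log2 scale (points) with its 95% interval from limma (lines), grouped by role and coloured by call. The 17 genes called higher lie between 0.43 and 2.08 and the 3 called lower between -2.66 and -1.08.

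RefSeq promoter windows, from 250 bases before a gene's start to 50 after it in the GRCm38.p6 build, were at hand for 48 of the 61 motor genes and 29 of the 40 tested. They were searched on both strands for 6 motifs: the cyclic AMP response element TGACGTCA, the NRF1 core GCATGCGC, the GC box GGGCGG, the E-box CACGTG, the half-site AAGGTCA and the SOX motif AACAAAG. No motif contains another. TGACGTCA stood in 1.79% of all 32851 windows and in those of 4 of the 29 tested motor genes, Klc1, Kif5c, Dctn3 and Kif17, all of which rose, as well as in that of Kif18a, which was not measured; 12 of the 17 risers had a window. These windows were picked to be shown after that was seen, and a match is a description of letters, with binding not measured here. The GC box stood in 35.7% of all windows and in 21 of 29 tested motor genes (9 of 12 risers, 2 of 2 fallers and 10 of 15 not called). The NRF1 core stood in 3 of 29 against 2.71% of all windows, the E-box in 2 (Kif1a and Klc4) against 7.15%, the SOX motif in 2 against 5.85% and the half-site in 0 against 4.72%. The 2 sides are unlike: a motor gene counts if any of its windows matches (55 windows for the 48 genes), while the shares count windows. All windows also include those of genes not measured here, so no enrichment can be read from these values. The 4 windows with TGACGTCA follow, 5′ to 3′ along the gene, with that motif in capitals.
Klc1, chr12:111758618-111758917, plus strand: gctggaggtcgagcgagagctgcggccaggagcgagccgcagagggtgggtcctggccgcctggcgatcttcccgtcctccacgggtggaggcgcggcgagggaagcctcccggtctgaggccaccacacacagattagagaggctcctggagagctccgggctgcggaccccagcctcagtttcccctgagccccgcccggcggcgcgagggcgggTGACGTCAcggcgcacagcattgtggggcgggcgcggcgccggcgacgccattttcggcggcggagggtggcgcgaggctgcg
Kif5c, chr2:49619036-49619335, plus strand: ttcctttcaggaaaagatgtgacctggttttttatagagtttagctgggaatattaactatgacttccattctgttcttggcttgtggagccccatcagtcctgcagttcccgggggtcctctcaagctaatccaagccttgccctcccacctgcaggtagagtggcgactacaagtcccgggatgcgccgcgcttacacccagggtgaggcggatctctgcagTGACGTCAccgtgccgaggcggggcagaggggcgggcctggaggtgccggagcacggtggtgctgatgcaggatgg
Dctn3, chr4:41723114-41723413, minus strand: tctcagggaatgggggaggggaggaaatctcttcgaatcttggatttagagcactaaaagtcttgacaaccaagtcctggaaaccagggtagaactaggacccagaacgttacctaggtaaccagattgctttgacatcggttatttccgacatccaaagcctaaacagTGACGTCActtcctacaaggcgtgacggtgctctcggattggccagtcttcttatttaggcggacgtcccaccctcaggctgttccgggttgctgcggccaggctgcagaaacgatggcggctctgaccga
Kif17, chr4:138262001-138262300, plus strand: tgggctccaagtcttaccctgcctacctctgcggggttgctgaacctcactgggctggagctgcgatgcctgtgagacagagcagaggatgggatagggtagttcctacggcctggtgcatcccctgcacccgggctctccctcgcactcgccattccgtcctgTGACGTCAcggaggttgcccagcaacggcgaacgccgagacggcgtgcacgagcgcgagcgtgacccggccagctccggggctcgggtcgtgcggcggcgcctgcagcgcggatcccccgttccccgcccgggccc
The motif begins 33 bases before the annotated start of Klc1 and 26 before that of Kif5c, and 81 and 86 bases before those of Dctn3 and Kif17. The GC content of the windows was 73.7% for Klc1, 58% for Kif5c, 52.3% for Dctn3 and 69.3% for Kif17, against a median of 52.7% over all windows.

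Kinesin-1, the main motor of fast outward transport, rose in all 5 of its tested chains. Kif5a, found mainly in neurons, had levels of 13.28, 13.08 and 13.10 on the P7 arrays, 13.37, 13.29 and 13.53 at P10, 13.33, 13.55 and 13.54 at P15, 13.33, 13.38 and 13.44 at P25 and 13.61, 13.41 and 13.72 at P40. It rose by 0.43 ± 0.12 (SE) on the log2 scale, 1.34-fold, with no overlap between P7 and P40 (limma, adjusted p = 0.0096). Kif5b, the heavy chain found in most tissues, measured 12.27, 11.93 and 11.42 at P7, 11.66, 11.59 and 12.39 at P10, 11.88, 12.07 and 12.02 at P15, 11.36, 11.47 and 11.71 at P25 and 12.67, 12.18 and 12.71 on the P40 arrays. Its P7 and P40 arrays overlapped, its lowest mean was at P25 (11.51 ± 0.18), and it rose by 0.65 ± 0.25 (adjusted p = 0.043); its 5 probe sets above 5 differed in sign, from -0.24 to 0.65. Kif5c, a neuronal heavy chain, stood at 12.93, 12.41 and 12.73 at P7, at 12.21, 12.61 and 13.27 at P10, at 12.90, 13.47 and 13.57 at P15, at 13.44, 13.56 and 13.24 at P25 and at 13.66, 13.41 and 13.43 at P40. Every P40 array was above every P7 array, and the rise was 0.81 ± 0.24 (1.76-fold, adjusted p = 0.012), with 1.21 at its other measured probe set. With equal array medians the difference of Kif5a was 0.21 and that of Kif5b 0.43, and neither was called.

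The kinesin-1 light chains bind the heavy chains to cargo. Klc1, the light chain of brain, had levels of 14.31, 13.83 and 14.11 on the P7 arrays, 13.45, 14.24 and 14.28 at P10, 14.37, 14.75 and 14.90 at P15, 14.86, 14.66 and 14.52 at P25 and 14.91, 14.74 and 14.79 at P40. The low arrays were those of P7 and P10, and it rose by 0.73 ± 0.20 from P7 to P40 (1.66-fold, limma, adjusted p = 0.0084). The mean of its probe sets gave 0.12 and no call, but the other Klc1 probe sets stayed under 5 on all arrays. Klc4 measured 7.62, 7.39 and 7.87 at P7, 7.86, 7.87 and 7.44 at P10, 7.87, 8.69 and 8.59 at P15, 9.23, 9.27 and 9.27 at P25 and 9.26, 9.35 and 9.23 on the P40 arrays. Its P25 and P40 arrays lay within 9.23 to 9.35 and all P7 and P10 arrays at or below 7.87, a rise of 1.66 ± 0.26 (3.15-fold, 95% interval 1.10 to 2.21, adjusted p = 0.00015). This was the firmest rise of kinesin-1, and it had a value of 0.80 with the mean of its probe sets. The other Klc4 probe set stayed under 5 on all arrays. Klc3 stayed between 3.27 and 3.53. Klc2 was not analysed here.

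Kinesin-2 carries cargo in axons and along cilia as a complex of Kif3a with Kif3b or Kif3c and the adaptor Kifap3, and as a Kif17 dimer that carries glutamate receptors in dendrites. Of its 5 genes, 2 rose and 3 were not called. Kif17 stood at 2.85, 2.90 and 3.27 at P7, at 3.71, 4.03 and 4.05 at P10, at 4.16, 5.65 and 3.75 at P15, at 4.07, 5.47 and 4.16 at P25 and at 4.58, 5.81 and 4.86 at P40. The P7 arrays were all under those of P40 and it rose by 2.08 ± 0.51 (adjusted p = 0.0043), but only 3 arrays passed 5, so that as a fold it was at least 1.06 and with values under 5 set to 5 the difference was 0.27 and not called. Kif3a stood at 10.55 ± 0.15 at P7, 9.89 ± 0.53 at P25 and 11.40 ± 0.21 at P40, a rise of 0.85 ± 0.32 between P7 and P40 (adjusted p = 0.043) that was not called with quantile normalization (0.66) or the mean of its 4 probe sets (0.30). Kif3b differed by -0.02 ± 0.58, Kif3c by 0.23 ± 0.19 and Kifap3 by 0.16 ± 0.20. The 95% intervals of these 3 differences ran from -1.27 to 1.22, from -0.17 to 0.63 and from -0.27 to 0.58. Their other measured probe sets differed by -1.19 and 0.13 for Kif3b, -0.31 for Kif3c and 0.30 for Kifap3.

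Kinesin-3 motors carry synaptic vesicle precursors and endosomes, and 3 of 6 tested rose. Kif1a, the carrier of synaptic vesicle precursors, had levels of 5.34, 3.27 and 3.34 on the P7 arrays, 5.07, 5.25 and 3.78 at P10, 4.84, 5.25 and 4.59 at P15, 3.69, 4.74 and 5.34 at P25 and 5.39, 5.97 and 5.18 at P40. The ages overlapped, 8 arrays passed 5, and the rise of 1.53 ± 0.58 (adjusted p = 0.043) was lost with values under 5 set to 5 (0.40). Kif1b, which moves vesicles and mitochondria, rose from 12.27 ± 0.59 to 13.22 ± 0.13, by 0.95 ± 0.27 (1.93-fold, adjusted p = 0.010). Its 4 probe sets above 5 ran from -0.71 to 0.95, with 2 of each sign, and their direction turned with the mean of its probe sets (-0.13). Kif16b, which moves early endosomes, measured 6.95, 5.97 and 5.31 at P7, 4.59, 5.30 and 6.34 at P10, 5.81, 6.46 and 6.10 at P15, 7.35, 6.70 and 7.73 at P25 and 7.37, 7.55 and 7.32 on the P40 arrays. It rose by 1.33 ± 0.47 (2.52-fold, adjusted p = 0.031), with all P40 arrays above all P7 arrays, and lost the call with quantile normalization (1.09), with the 3′ minus 5′ difference (0.52) or the cell number (0.76) as covariate and without P7 replicate 2 (1.28), P7 replicate 3 (0.95) or any 1 of the P40 arrays (1.26 to 1.38). Kif13a, a carrier of recycling endosomes, stood at 5.51, 9.31 and 8.73 at P7, at 8.56, 9.95 and 7.36 at P10, at 3.74, 3.67 and 4.97 at P15, at 3.17, 3.13 and 5.52 at P25 and at 6.33, 3.09 and 6.50 at P40. The difference between P40 and P7 was -2.55 ± 1.07 and not called (adjusted p = 0.064), its P7 arrays spanning 5.51 to 9.31. It was called lower without P7 replicate 1 (-3.72), without P40 replicate 3 (-3.15) and when its probe sets were averaged (-1.03), and its 3 measured probe sets differed by -2.55 to -1.21. Kif13b differed by -0.20 ± 0.29 and Kif1c by 0.15 ± 0.58.

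Kif21a and Kif21b, the kinesin-4 motors that restrain microtubule growth, moved in opposite directions. Kif21b had levels of 10.15, 9.39 and 9.49 on the P7 arrays, 8.98, 9.39 and 9.54 at P10, 8.44, 7.84 and 8.88 at P15, 7.06, 7.76 and 6.88 at P25 and 7.11, 6.89 and 7.05 at P40. The P7 and P10 arrays were all above the P15, P25 and P40 arrays, and from P7 to P40 the log2 level fell by 2.66 (SE 0.33, 95% interval -3.36 to -1.95), 6.31-fold, the largest fall of the tested motor genes (limma, adjusted p = 1.8e-05). Kif21a measured 9.04, 8.21 and 7.58 at P7, 7.42, 8.42 and 9.19 at P10, 9.02, 9.07 and 9.57 at P15, 11.03, 10.26 and 9.21 at P25 and 10.53, 9.30 and 9.98 on the P40 arrays. It rose by 1.66 ± 0.52 (3.16-fold, adjusted p = 0.017), the P40 arrays being above those of P7, and its other measured probe set differed by 2.20. The rise of Kif21a was not called without P7 replicate 3 (1.31) or P40 replicate 1 (1.36).

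Kif2a, a kinesin-13 that takes subunits off microtubule ends and prunes axon side branches, fell. Kif2a stood at 12.23, 11.66 and 12.56 at P7, at 10.94, 12.26 and 11.94 at P10, at 11.38, 11.17 and 11.51 at P15, at 10.76, 11.47 and 10.57 at P25 and at 10.68, 10.27 and 10.48 at P40. Each P40 array was below every P7 array, and the log2 level fell by 1.67 (3.18-fold, SE 0.33, adjusted p = 0.00082), and its 3 probe sets above 5 differed by -2.05 to -1.61. Kifc2, a minus-end directed kinesin-14 of neurons, went from 10.15 ± 0.53 at P7 to 11.24 ± 0.26 at P10 and 11.11 ± 0.22 at P40. The rise to P40 was 0.96 ± 0.29 (1.94-fold, adjusted p = 0.015), and with equal array medians 0.74 and not called. Kifc3, of the same family, differed by 0.21 ± 0.38 and Kif26b, an atypical kinesin-11 that passed 5 on 3 arrays, by -0.42 ± 0.71. Kif22 differed by 1.04 ± 0.45 from P7 to P40 (adjusted p = 0.074), and without P40 replicate 1 by 1.43, which was called.

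**Figure D2:**
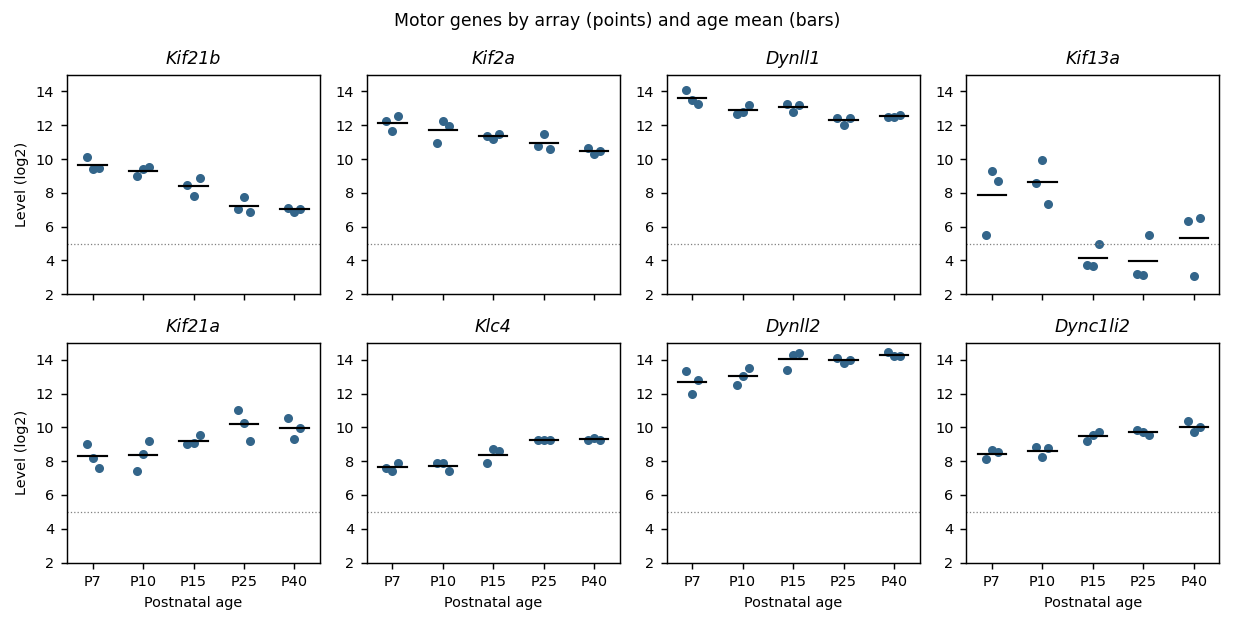
Log2 level of 8 motor genes on each array (points) by postnatal age, with the mean of the 3 arrays of an age (bars) and the limit of 5 (dotted line); levels of different genes are not comparable. Kif21b, Kif2a and Dynll1 go down with age, Kif21a, Klc4, Dynll2 and Dync1li2 go up, and Kif13a stands at or below 4.97 on all P15 arrays.

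Cytoplasmic dynein 1, the inward motor of axons, rose in 2 of its 5 genes. Dync1h1, its heavy chain, had levels of 12.30, 12.41 and 11.98 on the P7 arrays, 12.57, 12.09 and 12.39 at P10, 12.27, 12.67 and 12.77 at P15, 12.62, 12.38 and 12.55 at P25 and 12.88, 12.68 and 12.87 at P40. The P40 arrays were above those of P7, and the rise was 0.58 ± 0.17 (1.49-fold, adjusted p = 0.014), with 0.36 and no call at equal array medians. Dync1li2, a light intermediate chain that holds cargo adaptors, measured 8.15, 8.64 and 8.53 at P7, 8.83, 8.24 and 8.75 at P10, 9.19, 9.56 and 9.71 at P15, 9.86, 9.71 and 9.52 at P25 and 10.35, 9.72 and 10.01 on the P40 arrays. It rose by 1.59 ± 0.26 (3.00-fold, 95% interval 1.03 to 2.14, adjusted p = 0.0002), with P15, P25 and P40 all above P7 and P10; its other probe set differed by 0.24. Dync1li1, the other light intermediate chain, stood at 7.0, 8.64 and 9.44 at P7, at 9.60, 8.81 and 8.24 at P10, at 8.32, 8.58 and 8.84 at P15, at 7.60, 7.12 and 8.29 at P25 and at 8.33, 8.15 and 8.50 at P40. Its P7 arrays spread over 7.0 to 9.44 and the difference was -0.03 ± 0.51, with a 95% interval of -1.12 to 1.06. Dync1i1, the intermediate chain of neurons, had levels of 12.93, 11.66 and 11.95 on the P7 arrays, 11.77, 12.42 and 12.76 at P10, 12.67, 12.85 and 13.03 at P15, 13.02, 12.83 and 12.41 at P25 and 12.58, 12.64 and 12.38 at P40. The ages overlapped, and the difference of 0.35 ± 0.30 was not called, whereas without P7 replicate 1 it was 0.73 and called (adjusted p = 0.032). Dync1i2, the intermediate chain of most tissues, measured 11.66, 11.58 and 11.71 at P7, 10.99, 11.31 and 11.60 at P10, 11.07, 11.35 and 11.47 at P15, 11.33, 11.15 and 10.94 at P25 and 11.29, 11.30 and 11.25 on the P40 arrays. All P7 arrays were above those of P40, but the difference of -0.37 ± 0.19 was not called (adjusted p = 0.12), whereas with equal array medians it was -0.58 and called.

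The light chains of dynein moved apart. Dynll1, a small protein that dimerizes partners of dynein and of many other complexes, stood at 14.06, 13.51 and 13.27 at P7, at 12.68, 12.78 and 13.17 at P10, at 13.27, 12.80 and 13.20 at P15, at 12.43, 12.01 and 12.42 at P25 and at 12.49, 12.48 and 12.62 at P40. The P40 arrays were all below those of P7, and the log2 level fell by 1.08 (SE 0.21, 95% interval -1.52 to -0.65), 2.12-fold (adjusted p = 0.00066). All 4 of its probe sets were lower at P40, the differences lying between -2.80 and -0.93. Dynll2, its near-identical relative, had levels of 13.32, 11.96 and 12.80 on the P7 arrays, 12.51, 13.06 and 13.51 at P10, 13.37, 14.25 and 14.42 at P15, 14.10, 13.80 and 14.01 at P25 and 14.47, 14.21 and 14.22 at P40. It rose by 1.60 ± 0.32 (3.04-fold, 95% interval 0.91 to 2.29, adjusted p = 0.001) without overlap of P7 and P40, and its other measured probe set differed by 0.49. The call of Dynll2 was lost under 1 alternative, the 3′ minus 5′ covariate (0.82, adjusted p = 0.052). Dynlrb1, a roadblock light chain, measured 12.06, 11.99 and 11.50 at P7, 12.34, 11.59 and 11.98 at P10, 12.24, 12.95 and 12.91 at P15, 11.83, 11.66 and 12.02 at P25 and 12.29, 12.62 and 12.16 on the P40 arrays. It was high on P15 replicates 2 and 3 and differed by 0.50 ± 0.24 between P7 and P40, which was not called (adjusted p = 0.098). Dynlrb2, the roadblock chain of ciliated cells, stood at 4.99, 4.88 and 4.95 at P7, at 4.94, 4.99 and 4.98 at P10, at 5.28, 4.99 and 4.94 at P15, at 5.03, 4.99 and 5.0 at P25 and at 4.95, 5.30 and 5.53 at P40. Those values lie around the limit of 5, and the difference of 0.32 ± 0.28 was not called.

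Dynein 2, the motor that returns cargo from the tips of cilia, rose in its heavy chain. Dync2h1 had levels of 5.80, 6.10 and 6.77 on the P7 arrays, 5.59, 6.81 and 6.30 at P10, 6.63, 7.08 and 7.18 at P15, 7.15, 6.78 and 6.33 at P25 and 7.74, 6.79 and 7.81 at P40. The P40 arrays were above those of P7 by a narrow margin, the lowest being 6.79 against a highest of 6.77, and the rise was 1.22 ± 0.40 (2.33-fold, adjusted p = 0.022), with 0.95 and no call after quantile normalization. Dync2li1, its light intermediate chain, differed by 0.16 ± 0.47. Of the 6 dynactin genes, Dctn3, a subunit of the shoulder that joins dynactin's arm to its filament, rose from 10.49 ± 0.45 to 11.53 ± 0.12, by 1.04 ± 0.26 (2.06-fold, adjusted p = 0.0045). The other 5 were not called: Dctn1, the arm that binds microtubules, differed by 0.27 ± 0.17, Dctn2, the shoulder protein dynamitin, by 0.49 ± 0.21, and the pointed-end genes Dctn4, Dctn5 and Dctn6 by -0.53 ± 0.22, 0.11 ± 0.31 and -0.15 ± 0.21. At other probe sets above 5, Dctn1 differed by 0.76, Dctn5 by 1.06 and Dctn6 by 0.31, the last with the opposite sign. Those of Dctn4 differed by -0.46 and -0.19. Dctn4 was called lower with equal array medians (-0.75) and with quantile normalization (-0.73).

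Several calls between P7 and P40 ended when 1 array was left out. Each age had its own mean, so leaving out a P10, P15 or P25 array could not change these differences. It could change only their SE and adjusted p. Leaving out a P7 or P40 array moved the differences themselves. Kif3a lost its call without any 1 of the P7 or P40 arrays, P10 replicate 2, P15 replicate 2 or P25 replicate 1 (0.76 to 0.96). Kif1a lost it without P7 replicates 2 or 3, any 1 of the P15 or P40 arrays or P25 replicate 2 (1.18 to 1.70), and without P7 replicate 1 its difference was 2.21. Kif5b lost it without P7 replicates 2 or 3, P15 replicates 2 or 3, P25 replicates 1 or 2 or P40 replicates 1 or 3 (0.42 to 0.67). Dync2h1 lost it without P7 replicates 1 or 2 or P40 replicates 1 or 3 (1.01 to 1.16), Dync1h1 without P7 replicate 3 (0.45) or P40 replicate 1 (0.54) and Kifc2 without P7 replicate 2 (0.68) or P40 replicate 1 (0.89). Kif1b lost it without P7 replicate 3 (0.69), Kif5c without P7 replicate 2 (0.67) and Kif5a without P40 replicate 3 (0.36).

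Between neighbouring ages few motor genes were called. From P7 to P10 Kif22 rose from 5.70 ± 0.62 to 7.59 ± 0.31, by 1.89 ± 0.45 (3.70-fold, limma, adjusted p = 0.032); the 2 other Kif22 probe sets stayed under 5 on all arrays, and the mean of its probe sets gave 0.63 and no call. This was 1 of 40 higher against 2.37% of all genes, and 0 were lower against 1.23%. From P10 to P15, Dync1li2 (0.88 ± 0.26), Klc1 (0.68 ± 0.20) and Kif3c (0.63 ± 0.19) rose, 3 of 40 against 8.57% of all genes. The other measured Kif3c probe set went from 9.69 to 9.62, and the mean of its probe sets gave 0.28 and no call. The other measured Dync1li2 probe set went from 7.71 to 8.73. In the same step Kif13a fell from 8.62 ± 1.30 to 4.12 ± 0.73, at least 12.3-fold with all P15 arrays under 5 (difference -4.50 ± 1.07, adjusted p = 0.019), 1 of 40 lower against 2.79%. The other measured Kif13a probe sets went from 5.83 to 5.51 and from 4.35 to 3.51 in that step, and the mean of its probe sets gave -1.14. From P15 to P25 the log2 level of Dynll1 fell by 0.80 (adjusted p = 0.038, SE 0.21), 1 of 40 against 2.49%, and 0 rose against 2.37%. From P25 to P40 Kif3a rose by 1.50 ± 0.32 (2.83-fold, adjusted p = 0.049), 1 of 40 against 0.404%, and 0 fell against 0.269%. The 3 other measured Kif3a probe sets went from 10.20 to 10.26, 10.25 to 10.22 and 8.87 to 8.70, and the mean of its probe sets gave 0.34 and no call. At an unadjusted p under 0.05 limma gave 2 motor genes higher and 1 lower from P7 to P10, and 11 higher and 2 lower from P10 to P15. From P15 to P25 it gave 2 higher and 4 lower, and from P25 to P40 3 higher and 1 lower. The shares of all genes at that unadjusted limit are not given here. Over the 17 genes that rose from P7 to P40, the median difference per step was 0.10, 0.66, 0.01 and 0.20 in order of age, and 15 of the 17 were higher at P15 than at P10. Those 17 were picked on the sum of these steps, so the split among steps is a description. The P15 means in it include the arrays that lacked signal from the hybridization controls.

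The calls of these steps ended with single arrays left out. An array outside a step could not change its difference, since each age had its own mean. Arrays within a step moved it. Without P10 replicate 1, Klc1 differed by 0.41 against 0.68 from P10 to P15 and Kif3c by 0.48 against 0.63. Dync1li2 then differed by 1.00 against 0.88. The 3 rises from P10 to P15 were smaller without both P15 replicates 2 and 3. Dync1li2 then differed by 0.59 against 0.88, Kif3c by 0.44 against 0.63 and Klc1 by 0.38 against 0.68. Without P15 replicates 2 and 3, which lacked control signal, 0 motor genes were called in either direction from P10 to P15 or from P15 to P25, and 0 rose from P7 to P10; at an unadjusted p under 0.05 limma gave 0 higher and 3 lower from P10 to P15, 2 and 2 from P15 to P25 and 2 higher from P7 to P10. Leaving out 1 array at a time gave 0 to 9 rises from P10 to P15: 9 without P10 replicate 3 or P15 replicate 1, 6 without P7 replicate 1, 1 without P25 replicate 1, P40 replicate 1 or P40 replicate 2, and 0 without P10 replicate 1, P10 replicate 2, P15 replicate 2, P15 replicate 3, P25 replicate 2 or P40 replicate 3. The call of Kif22 was lost without any 1 of the P10 arrays or without P7 replicate 3 (1.54 to 2.07), and that of Kif3a without any 1 of the P7 or P40 arrays, P10 replicates 2 or 3, P15 replicate 2 or P25 replicates 1 or 2 (1.24 to 1.61). The call of Kif13a was lost without P10 replicate 1 (-4.53), P10 replicate 2 (-3.83) or P15 replicate 2 (-4.27) and without both P15 arrays that lacked control signal (-4.88). That of Dynll1 from P15 to P25 was lost without P15 replicates 1 or 3, any 1 of the P25 arrays, P40 replicate 1 or P40 replicate 3 (-0.87 to -0.66), and without those 2 P15 arrays the difference was -0.98.

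**Figure D3:**
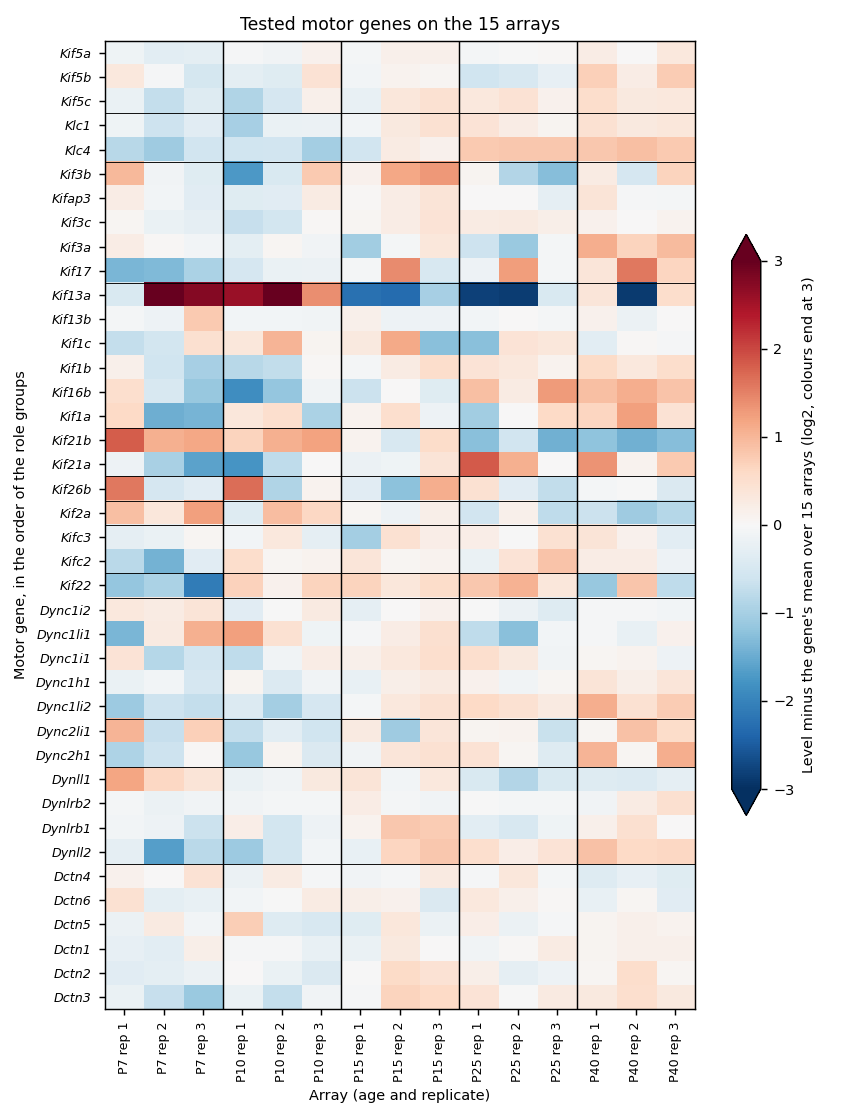
Level of the 40 tested motor genes on the 15 arrays, as the log2 difference from the gene's own mean, with genes grouped by role and arrays by age; colours end at 3. Kif13a has the widest range, from 3.09 to 9.95, and Kif21b turns from above its mean at P7 and P10 to below it at P25 and P40.

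Close relatives were compared within each array, where a change in overall signal cancels. The log2 difference between the probe sets of 2 paralogs has no meaning as a level, but its change with age shows unequal change. Of 12 pairs compared, 9 changed over the 5 ages (permutation F test with 100000 resamples, adjusted p under 0.05 over the 12 pairs). Each p is for any difference among the 5 ages, not for the change from P7 to P40. Pairs of other genes were not compared, and 47.2% of all genes passed the moderated F test over the ages. The count of 9 is therefore not a trait shown to be particular to motor paralogs. Kif21a minus Kif21b went from -1.40 ± 0.44 at P7 through -0.96 ± 0.61, 0.83 ± 0.34 and 2.93 ± 0.90 to 2.92 ± 0.51 at P40, a change of 4.32 (permutation p = 9e-05, adjusted p = 0.00054). Dynll1 minus Dynll2 went from 0.92 ± 0.56 through -0.15 ± 0.28, -0.92 ± 0.72 and -1.68 ± 0.10 to -1.77 ± 0.19, a change of -2.69 (adjusted permutation p = 0.00054). In both pairs the P7 and P40 arrays did not overlap. The pairs were set with earlier results of these data in view, so these tests are not independent of the gene-by-gene calls.

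Dync1li1 minus Dync1li2 changed by -1.62, from -0.08 ± 1.03 to -1.70 ± 0.28 (adjusted permutation p = 0.020), and Dync1i1 minus Dync1i2 by 0.72, from 0.53 ± 0.64 to 1.25 ± 0.11 (adjusted permutation p = 0.025). For Dync1i1 minus Dync1i2 the P7 and P40 arrays overlapped, and the highest mean was at P25 (1.62 ± 0.12). Kif3a minus Kif3c changed by 0.62 (adjusted permutation p = 0.020), with its lowest means at P15 (-1.81 ± 0.53) and P25 (-2.15 ± 0.57). Kif13a minus Kif13b also passed over the 5 ages (adjusted permutation p = 0.025), but its P7 and P40 arrays overlapped and Kif13a was not above 5 on 6 of the 15 arrays, so no size is given. The 3 differences among the kinesin-1 heavy chains changed by -0.39 for Kif5a minus Kif5c, -0.22 for Kif5a minus Kif5b and -0.17 for Kif5b minus Kif5c, with adjusted permutation p of 0.049, 0.032 and 0.020. For the pairs with Kif5b, P25 was the age that stood apart: Kif5b minus Kif5c was -1.90 ± 0.32 there, against -0.82 ± 0.43 at P7 and -0.98 ± 0.26 at P40. Kif1a minus Kif1b, Kif3a minus Kif3b and Dynlrb1 minus Dynlrb2 did not pass (adjusted permutation p of 0.66, 0.14 and 0.19). With the mean of each gene's probe sets 2 pairs passed, those of Kif21 and Dynll; without P25 replicate 1 the same 2 passed, and without P25 replicate 2 there were 3.

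**Figure D4:**
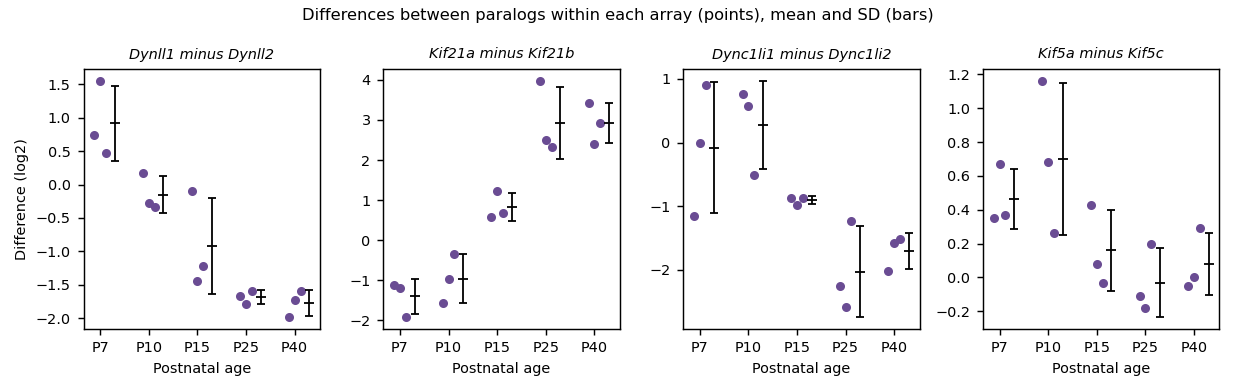
Log2 level of one paralog minus that of the other on each array (points) by postnatal age for 4 pairs, with the mean and SD of the 3 arrays (bars). Dynll1 minus Dynll2 goes from 0.92 at P7 to -1.77 at P40 and Kif21a minus Kif21b from -1.40 to 2.92, while Kif5a minus Kif5c changes by -0.39.

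The genes that work with the motors were read from 4 lists. Over all tested genes 27.5% were called higher and 17.6% lower from P7 to P40, with a median difference of 0.18. Of 42 tested motor adaptors and regulators, 21 rose and 3 fell between P7 and P40, with a median difference of 0.78. With the 3′ minus 5′ covariate 9 rose and 1 fell, with probe-set means 13 rose, and with quantile normalization or array weights 5 fell. The firmest rises were Rhot2, which ties mitochondria to motors (7.03 ± 0.39 to 8.82 ± 0.26, 3.45-fold, limma, adjusted p = 0.00014), Borcs5, which helps bring kinesin to lysosomes (2.65 ± 0.43 on the log2 scale), and Mapk8ip3, an adaptor of kinesin-1 and dynein (1.30 ± 0.24). The 3 that fell were Grip1, a glutamate receptor scaffold carried by Kif5 (-1.25 ± 0.31), Gphn, the scaffold of inhibitory synapses (-0.73 ± 0.19), and Bicdl1, a dynein adaptor (-1.08 ± 0.31). Of 5 other tested dynein and dynactin parts, 1 rose, the light chain Dynlt3 (1.01 ± 0.19), 0 fell (also 0 at an unadjusted p under 0.05 by limma), and the median was -0.09.

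Of 11 tested tubulin genes, which build the tracks, 3 rose and 5 fell, with a median of 0.41; without a trend in the prior 3 fell. Tuba8 went from 4.05 ± 1.15 to 10.07 ± 0.15 (adjusted p = 2.7e-07), and Tuba4a (1.01 ± 0.11) and Tubg2 (1.31 ± 0.40) also rose. Tubb2b, a beta-tubulin of young neurons, went from 15.02 ± 0.32 to 11.76 ± 0.37 (9.58-fold lower, adjusted p = 7.5e-07), and Tubb5 (-1.92 ± 0.14) and Tuba1a (-0.96 ± 0.12) also fell. Of 34 tested microtubule-associated proteins and tubulin-modifying enzymes, 8 rose and 10 fell, with a median of -0.09. Ttll7 and Ttll11, which add glutamate chains to tubulin, rose by 3.32 ± 0.24 and 2.46 ± 0.40, and Map7d2, which recruits kinesin-1 to microtubules, by 2.17 ± 0.25. Map6, which stabilizes microtubules, differed by -4.32 ± 0.55, and Vash2 and its partner Svbp, which trim the last tyrosine of alpha-tubulin, by -2.42 ± 0.35 and -3.39 ± 0.34, all 3 called lower. Over all genes 27.5% were higher and 17.6% lower. The shares of tubulin and microtubule-associated genes that rose lie near the first of these. The shares that fell, 5 of 11 and 10 of 34, lie above the second. These lists are short, and whether their shares differ from those of all genes was not tested.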

How the data were processed

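The values are the log2 levels the authors deposited, 1 per probe set and array, made with GCRMA per the submitters' processing notes; no version is given in the sources used here. GCRMA models background from probe sequence and normalizes arrays together, which pulls dim probe sets toward a floor. Of 45101 probe sets, 34945 name 1 gene, and the one with the highest mean over 15 arrays stood for its gene. Genes above 5 on at least 3 arrays were tested with limma 3.58.1 (R 4.3.3), a mean per age over all 15 arrays, eBayes with a trend, and Benjamini-Hochberg adjustment over 9663 genes; the script was tested on simulated data. Paralog differences were tested by permutation F. A fold is given where both means exceed 5, "at least" where all arrays of an age lie at or below 5 and are set to it. Arrays carry no counts, and their number limits the precision. P-values rest on 3 animals per age, 1 array each. Same-numbered arrays did not deviate together (correlations of -0.40 to 0.27, median -0.07), so numbers were not treated as pairs.

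Per-array levels are given for the 8 largest called rises and the 3 called falls from P7 to P40, and for Kif13a, called lower from P10 to P15 only. They are also given for all tested members of kinesin-1, dynein 1 and the dynein light chains. Other members are given by mean or difference. In each pathway list up to 3 called genes per direction with the smallest adjusted p are named. Members and lists were chosen with earlier results of these data known. Alternatives covered normalization, the filter, the probe set, the prior, array weights, covariates, the replicate block and left-out arrays. The mean of a gene's probe sets takes in those that stayed under 5. The oligonucleotide sequences of the probes and protein sequences were not used here. Promoter windows are RefSeq's. Figures were drawn with matplotlib 3.10.9 from Python 3.11.15.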

Additional observations from a re-analysis of the deposited data

How the results depend on the processing

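Of the 20 motor genes called between P7 and P40, 5 kept direction and call in all alternatives; over 558 gene and setting combinations 462 kept both, 95 lost the call and 1 turned, Kif1b with the mean of its probe sets (-0.13). The 20 not called stayed uncalled in 544 of 555 and gained a call in 11; their sign turned in 32 of them. Rises from P7 to P40 numbered 10 with equal array medians, 11 with the mean of probe sets, 3 with the 3′ minus 5′ covariate, 8 with the cell number as covariate and 10 to 17 with 1 array left out. Falls numbered 5 with quantile normalization or equal medians and 13 with no filter, which also tests the dim genes. With the replicate number as a block 15 rose and 3 fell; 2 of 15 arrays correlated best with an array of their own number. For the any-age test the covariates gave 12 (3′ minus 5′) and 13 (cells) in place of 20. The shares of all genes called under the alternatives are not given here.

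Step counts were small and moved under most settings. Rises from P7 to P10 were 0 with no filter, probe-set means, only the 2 ages compared, array weights or P15 replicates 2 and 3 left out, 2 with a limit of 7 or the cell covariate, and 0 to 2 with 1 array left out; falls were 1 with probe-set means or the cell covariate and 0 to 1 with 1 array left out. Rises from P10 to P15 were 0 with quantile normalization, equal medians, no filter, only the 2 ages, either covariate, the replicate block or P15 replicates 2 and 3 left out, 1 with probe-set means or no trend, 13 with array weights, and 0 to 9 with 1 array left out. Falls in that step were 2 with quantile normalization or equal medians, 0 with no filter, either covariate or P15 replicates 2 and 3 left out, and 0 to 1 with 1 array left out. From P15 to P25 rises were 1 with probe-set means, array weights or the cell covariate. Falls there were 3 with quantile normalization, 2 with equal medians, a limit of 7 or values under 5 set to 5, 6 with array weights, 0 with no filter, no trend, either covariate or P15 replicates 2 and 3 left out, and 0 to 3 with 1 array left out. From P25 to P40 rises were 2 with no filter or array weights, 0 with probe-set means, no trend, only the 2 ages, the 3′ minus 5′ covariate or the replicate block, and 0 to 1 with 1 array left out; falls were 2 with no filter and 1 with array weights. The cause was not tested.

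Of the paralog differences, 2 passed with probe-set means and 2 to 10 with 1 array left out. Kif5a minus Kif5b changed by 0.13 with probe-set means, against -0.22, and Kif5b minus Kif5c by -0.41 to 0.00 with 1 array left out. Signal over background limits Kif17, Kif1a, Kif26b and Dynlrb2, which lay near the limit.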
